A study of Mus musculus with 10 samples.

Results

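The phagocyte NADPH oxidase was followed through 7 genes, Cybb, Cyba, Ncf1, Ncf4, Rac1, Rac2 and Hvcn1, chosen by name from a table of 54146 genes. All 7 were found in the table, and all 7 passed the filter for testing (1 RPKM or more in 2 libraries or more), as did 8039 genes in all. RPKM divides the reads of a gene by the length of its model and by the library total. RNA came from CD11b+ Ly-6G+ cells sorted from peripheral blood of BALB/c nu/nu mice, which lack a functional thymus, 14 days after an injection into the kidney. The sham group received vehicle, the OSPa group cells read here as the parental human kidney cancer line OS-RC-2 (clear cell carcinoma), and 3 further groups the derived lines OS5K #1, OS5K #2 and OS5K #3. The mice carried no other treatment by the labels. Each of the 5 groups had 2 libraries, 10 in all, made from polyadenylated RNA with the SMART-Seq v4 kit. The labels do not say whether the 2 libraries of a group came from separate animals, so the errors and p-values cover the spread between these libraries, which may be technical. With 1 parental line, the spread between parental lines was not measured.

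The oxidase passes electrons from NADPH in the cytosol across the membrane of the phagosome to oxygen, which makes superoxide, the first product of the respiratory burst by which neutrophils kill microbes. Its catalytic core is a membrane flavocytochrome made of gp91phox (Cybb, also called NOX2) and p22phox (Cyba). In resting cells the subunits p47phox (Ncf1) and p40phox (Ncf4) stay in the cytosol, and they join the core together with a GTP-loaded Rac GTPase when the cell is stimulated. The proton channel encoded by Hvcn1 carries protons across the membrane, which offsets the charge that the electrons move. Loss of Cybb, Cyba or Ncf1 in people causes chronic granulomatous disease. Much of the control of the enzyme lies in phosphorylation and assembly, which RNA levels do not measure.

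Upstream sequences are shown for the pair that forms the membrane core, because the transcripts of this pair differed at least 10.3-fold in level in every library while the proteins form a dimer. RefSeq promoter sequence (GRCm38.p6) was matched for 3 of the 7 genes, Cybb, Cyba and Ncf1. Each window holds the 250 bases before the annotated start, written 5′ to 3′ on the strand of the gene, with the motifs found in capitals. The Cybb window is chrX:9469325-9469574 and the Cyba window chr8:122432941-122433190, both on the minus strand; the Cybb window starts from the RefSeq start, which lies inside the span of the gene in the deposited table.
Cybb: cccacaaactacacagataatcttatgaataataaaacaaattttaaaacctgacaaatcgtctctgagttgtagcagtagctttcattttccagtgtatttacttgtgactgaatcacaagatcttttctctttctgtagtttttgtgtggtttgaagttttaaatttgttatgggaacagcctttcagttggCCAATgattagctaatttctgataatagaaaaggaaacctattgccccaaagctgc
Cyba: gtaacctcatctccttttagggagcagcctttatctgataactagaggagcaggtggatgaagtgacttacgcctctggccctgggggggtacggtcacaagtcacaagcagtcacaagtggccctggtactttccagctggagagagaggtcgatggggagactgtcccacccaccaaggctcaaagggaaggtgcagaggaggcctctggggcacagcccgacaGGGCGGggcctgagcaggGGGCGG
The letters searched on both strands were CCAAT (the CCAAT box), GGGCGG (the GC box) and GAGGAA (the core of a PU box), which do not overlap one another in these windows. The Cybb window held 1 CCAAT box and was 34% G and C. The Cyba window held 2 GC boxes and was 60% G and C. The Ncf1 window (chr5:134229626-134229875, minus strand) held 1 GC box on the opposite strand and was 54.4% G and C. Of the 32851 windows of this length in the table, 33.8% held CCAAT, 32.7% GGGCGG and 23.3% GAGGAA, with a median G and C content of 52.4%. A match to these letters is a description and not a bound site.

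The sorted cells carried neutrophil transcripts, and the read totals were close. All 9 listed neutrophil markers were tested, with S100a9 between 38018 and 46971 RPKM and Csf3r between 1274 and 1758 RPKM. Ly6g, which encodes the antigen of the sort gate, lay between 52.7 and 100.8 RPKM, and Itgam, which encodes CD11b, between 35.4 and 68.2 RPKM. Read totals, recovered from the RPKM values with annotated exon lengths, ran from 13765576 to 15514537, a ratio of 1.13. RNA of other blood cells was present too. The summed RPKM of 6 B-cell markers ranged from 41.3 to 122, that of 5 platelet markers from 191 to 1420, and hemoglobin genes took between 1.59% and 9.52% of the reads, least in OSPa. The 5 eosinophil markers summed to between 11.01 and 16.4 RPKM, mostly Siglecf (6.14 to 13.03 RPKM) and Ccr3 (3.10 to 5.91 RPKM), with Prg2 at 0 in all 10 libraries. The 5 markers of T and NK cells summed to between 1.30 and 5.90 RPKM, with Ncr1 and Nkg7 up to 2.77 and 2.68 RPKM and Cd3e at most 0.0178 RPKM. In such bulk samples, fewer cells of a type and less RNA per cell cannot be told apart.

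The mean levels of the 7 genes ran from 2.07 to 417 RPKM. Rac2, the Rac GTPase of blood cells, was highest with a mean of 417 ± 53.9 RPKM (SD, n = 10 libraries). Cyba followed at 315 ± 50.2 RPKM and Ncf4 at 281 ± 38.3 RPKM. Ncf1 had a mean of 112 ± 26.4 RPKM and the widely expressed Rac1 one of 105 ± 13.3 RPKM. Cybb stood lower, at 20.1 ± 3.29 RPKM, and Hvcn1 lowest, at 2.07 ± 1.06 RPKM. Behind these levels were between 1334 and 23769 recovered reads per library for 6 of the genes. Hvcn1 had between 55 and 229, so counting error weighs most on the proton channel. The order of neighbours was the same in all 10 libraries for Rac2 over Cyba, Ncf4 over Ncf1, Rac1 over Cybb and Cybb over Hvcn1. Cyba exceeded Ncf4 in 8 of 10 libraries and Ncf1 exceeded Rac1 in 5 of 10, so the order of the latter pair was not stable. Parts of the order depend on the length used: with the length of the principal transcript in place of all annotated exons, Cyba came to 439 and Rac2 to 426 on the same scale, and Cyba was above Rac2 in 7 of 10 libraries. With that length Ncf1 was above Rac1 in 8 of 10 libraries, 1.30-fold on average.

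**Figure D1:**
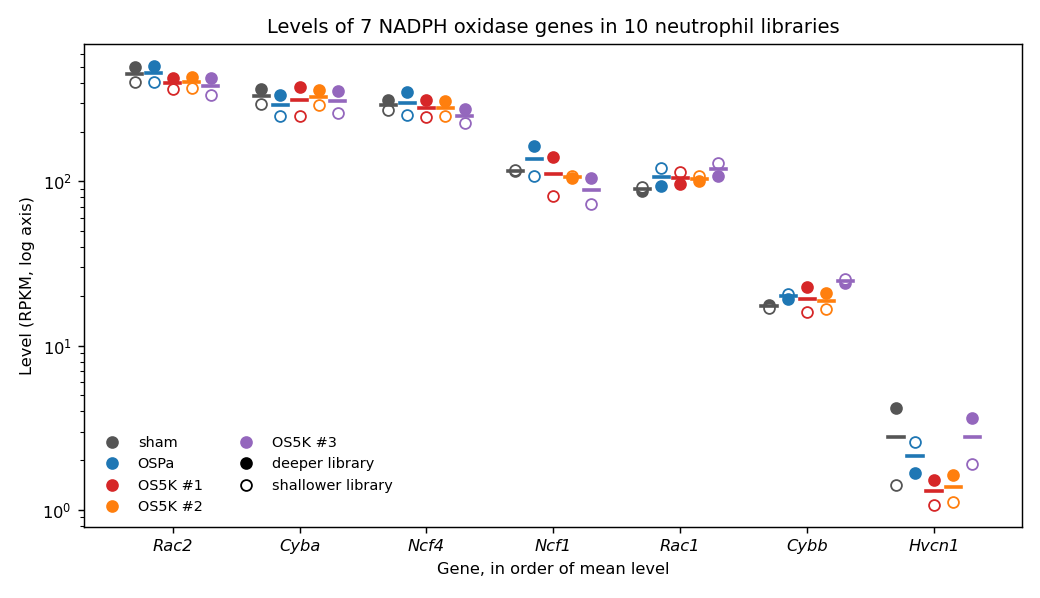
Level of each gene in RPKM (log axis) by group, with a point for each library and a bar for the mean of the 2 libraries of a group. Filled points are the library with more reads in its group. The levels run from about 417 RPKM for Rac2 to 2.07 RPKM for Hvcn1, and most groups overlap for each gene.

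No member of the complex passed the test in any comparison. One limma model with 5 group means was fitted to log2(RPKM + 1) of all 8039 genes, and calls were made at an adjusted p under 0.05 (Benjamini-Hochberg over these genes). In the mean of the OS5K lines against OSPa, 0 of 7 members were called, where 0.348% of all genes tested were. In OSPa against sham and in OS5K against sham, 0 of 7 were called and 0% of all genes. In the F test over all 5 groups, 0 of 7 were called against a background of 0.0124%, and in the F test among the OS5K lines 0 of 7 against 0%. None of the 7 had an unadjusted p under 0.05 in any of these 5 limma tests. Over all genes, unadjusted p-values under 0.05 were found for 634 genes in OS5K against OSPa, 480 in OSPa against sham, 838 in OS5K against sham, 686 over all groups and 535 among the lines. With limma-voom on reads recovered from the RPKM values, no member was called either, and 20, 0, 0, 4 and 0 genes in all were called in these 5 tests, in the same order. The median log2 fold change of the members was -0.15 for OS5K against OSPa, 0.03 for OSPa against sham and -0.12 for OS5K against sham, where all genes tested had medians of 0.02, -0.04 and -0.02. OSPa enters the first 2 of these comparisons and sham the last 2, so they are not independent.

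**Figure D2:**
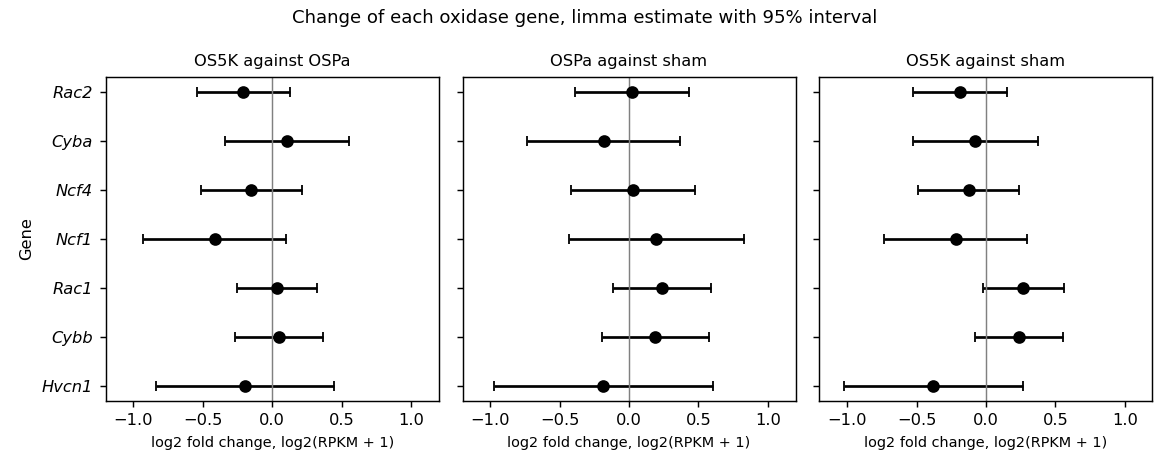
limma log2 fold change of each gene on the log2(RPKM + 1) scale for 3 comparisons, with the 95% interval as a bar. Every interval includes 0. The lowest estimate is that of Ncf1 in OS5K against OSPa, -0.42.

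Cybb (ENSMUSG00000015340, mm10 chrX:9435252-9487771) encodes the catalytic subunit, which holds the heme and flavin groups. Its level was 17.7 and 17.03 RPKM in the sham libraries and 20.7 and 19.2 RPKM in OSPa. With the derived lines it was 22.7 and 16.0 RPKM in OS5K #1, 16.6 and 20.9 RPKM in OS5K #2, and 24.2 and 25.4 RPKM in OS5K #3. Both OS5K #3 libraries were above the other 8, whereas the OS5K #1 and OS5K #2 libraries spanned the sham and OSPa values. An ordering of this kind, with both OS5K #3 libraries above all others, was found for 6.53% of all genes tested, and Cybb was the 1 member that showed it. The group and the direction were chosen after the values were seen. The share of genes with any group wholly above or below the others was not counted and can only be as large or larger. The test among the OS5K lines gave an adjusted p of 0.761 for Cybb (limma). Against OSPa the mean of the OS5K lines differed by 0.05 on the log2 scale (SE 0.14, 95% interval -0.27 to 0.36, adjusted p = 0.999, limma). Against sham the difference was 0.24 (SE 0.14, 95% interval -0.08 to 0.55, adjusted p = 0.578, limma). Monocytes carry the same oxidase. The summed level of the 11 monocyte and macrophage markers was 195 to 239 RPKM in sham, 178 to 203 RPKM in OSPa, 199 to 220.3 RPKM in OS5K #1, 216 to 267 RPKM in OS5K #2 and 255 to 262 RPKM in OS5K #3, and none of the 11 was at 0 in all libraries. This sum was mostly Csf1r (80.6 to 112 RPKM over the 10 libraries), Cd68 (52.8 to 81.9 RPKM) and Ly6c2 (25.7 to 40.3 RPKM). Some of the lower markers varied far more, with Ccr2 from 0.345 to 12.1 RPKM, F13a1 from 2.32 to 27.0 RPKM and Ms4a4a from 0.0798 to 19.7 RPKM. Adgre1 varied less, from 2.49 to 4.23 RPKM. A similar sum therefore does not mean similar levels of each marker. The part of monocyte RNA in the Cybb values was not tested.

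Cyba (ENSMUSG00000006519, chr8:122424776-122432930) encodes p22phox, which stabilizes gp91phox and offers the docking site for p47phox. The sham libraries had 366 and 296 RPKM and the OSPa libraries 250 and 335 RPKM. OS5K #1 gave 375 and 250 RPKM, OS5K #2 293 and 362 RPKM, and OS5K #3 356 and 261 RPKM. Every group held a high and a low library, farthest apart in OS5K #1, and all groups overlapped. The group means, between 293 and 331 RPKM, were closer than the libraries within a group. For OS5K against OSPa the log2 difference was 0.11 (SE 0.20, 95% interval -0.34 to 0.56, adjusted p = 0.991, limma).

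Ncf1 (ENSMUSG00000015950, chr5:134220053-134229625) encodes p47phox, the organizer that links the cytosolic subunits to the core after phosphorylation. Its level was 115 and 118 RPKM in sham, 108 and 165 RPKM in OSPa, and 140 and 81.2 RPKM in OS5K #1. In OS5K #2 it was 108 and 105 RPKM and in OS5K #3 105 and 73.2 RPKM. The highest value was in an OSPa library and the lowest in an OS5K #3 library, 2.26-fold apart, but the other OSPa library lay among the OS5K values. The OS5K lines against OSPa gave the lowest estimate of the complex, -0.42 on the log2 scale (SE 0.23, 95% interval -0.93 to 0.10, adjusted p = 0.775, limma). It stayed below 0 in each of 27 alternatives but was -0.72 without replicate 1 of OSPa and -0.11 without replicate 2, so its size rests on which OSPa library is kept.

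Ncf4 (ENSMUSG00000071715, chr15:78244801-78262580) encodes p40phox, which binds a phosphoinositide of the phagosome membrane. Its level was 313 and 273 RPKM in sham and 254 and 350 RPKM in OSPa. With the derived lines it was 311 and 248 RPKM in OS5K #1, 251 and 308 RPKM in OS5K #2, and 275 and 227 RPKM in OS5K #3. The groups overlapped, and OSPa alone covered most of the range of the other groups. The log2 difference of OS5K from OSPa was -0.15 (SE 0.16, 95% interval -0.52 to 0.21, adjusted p = 0.948, limma).

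Rac2 (ENSMUSG00000033220, chr15:78559167-78572783) is the main Rac isoform of neutrophils and is required in mice for a full oxidative response. Its level was 494 and 402 RPKM in sham, 405 and 505 RPKM in OSPa and 429 and 366 RPKM in OS5K #1. OS5K #2 gave 369 and 432 RPKM and OS5K #3 429 and 336 RPKM. The 4 sham and OSPa libraries had the 2 highest values, but their lower libraries overlapped the OS5K range. The log2 difference of OS5K from OSPa was -0.21 (SE 0.15, 95% interval -0.54 to 0.13, adjusted p = 0.878, limma), and from sham -0.19 (SE 0.15, adjusted p = 0.682, limma). The first was -0.37 without replicate 1 of OSPa and -0.05 without replicate 2, and the second -0.04 without replicate 1 of sham and -0.34 without replicate 2. The longest stretch of identical bases between annotated Rac1 and Rac2 transcripts was 29 bases, and how reads with several matches were counted is not given in the sources used here.

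Rac1 (ENSMUSG00000001847, chr5:143503634-143528036), the isoform found in most tissues, steers migration of neutrophils more than the burst. Its level was 87.4 and 92.8 RPKM in sham and 120 and 93.8 RPKM in OSPa. With the derived lines it was 96.5 and 114 RPKM in OS5K #1, 108 and 99.95 RPKM in OS5K #2, and 108 and 129 RPKM in OS5K #3. Both sham libraries lay below all 8 libraries from tumour-bearing mice, by a small margin from the lower OSPa library. Rac1 was the 1 member of 7 with this order, and 3.50% of all genes tested had it in the same direction. In OS5K against sham alone, 1 member (Rac1) and 6.66% of all genes did not overlap in the upward direction, and in OSPa against sham 2 members (Rac1 and Cybb) and 12.4% of all genes. No member lay wholly below sham, where 22.2% of all genes did in OSPa, 5.17% in OS5K and 3.28% over all tumour-bearing groups. None lay wholly apart in OS5K against OSPa either, where 5.45% of all genes were higher and 2.9% lower. The log2 difference of OS5K from sham was 0.27 (SE 0.13, 95% interval -0.02 to 0.56, adjusted p = 0.509, limma), and that of OSPa from sham 0.24 (SE 0.16, adjusted p = 0.827, limma). The latter was 0.058 without replicate 1 of OSPa and 0.41 without replicate 2.

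Hvcn1 (ENSMUSG00000064267, chr5:122206804-122242297), the proton channel gene, had the widest spread of the complex, 3.86-fold between its lowest and highest library. Its level was 4.15 and 1.41 RPKM in sham, 2.58 and 1.68 RPKM in OSPa and 1.52 and 1.07 RPKM in OS5K #1. OS5K #2 gave 1.12 and 1.63 RPKM and OS5K #3 3.64 and 1.90 RPKM. Replicate 1 of sham and replicate 1 of OS5K #3 were highest, and the sham group spanned most of the range. The log2 difference of OS5K from sham was -0.38 (SE 0.29, 95% interval -1.02 to 0.26, adjusted p = 0.666, limma). It was 0.17 without replicate 1 of sham and -0.93 without replicate 2, so the direction turns on which sham library is kept. B cells also use this channel. Cd79a, a chain of the B-cell receptor complex, was highest in the same libraries, with 27.2 RPKM in replicate 1 of sham and 21.3 RPKM in replicate 1 of OS5K #3, and lowest with 8.36 RPKM in replicate 2 of OS5K #1, where Hvcn1 was lowest too. Cd79a is shown because its levels were among the closest to those of Hvcn1 (Pearson r = 0.90 over 10 libraries). Another B-cell marker, Ms4a1, had another order, with its highest level of 3.69 RPKM in replicate 2 of OS5K #3 and its lowest of 0.787 RPKM in replicate 2 of OSPa. The summed level of the 6 B-cell markers was 73.1 to 122 RPKM in sham, 57.4 to 74.3 RPKM in OSPa and 41.3 to 98.1 RPKM in OS5K, and none of the 6 was at 0 in all libraries. The part of B-cell RNA in the Hvcn1 values was not tested.

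**Figure D3:**
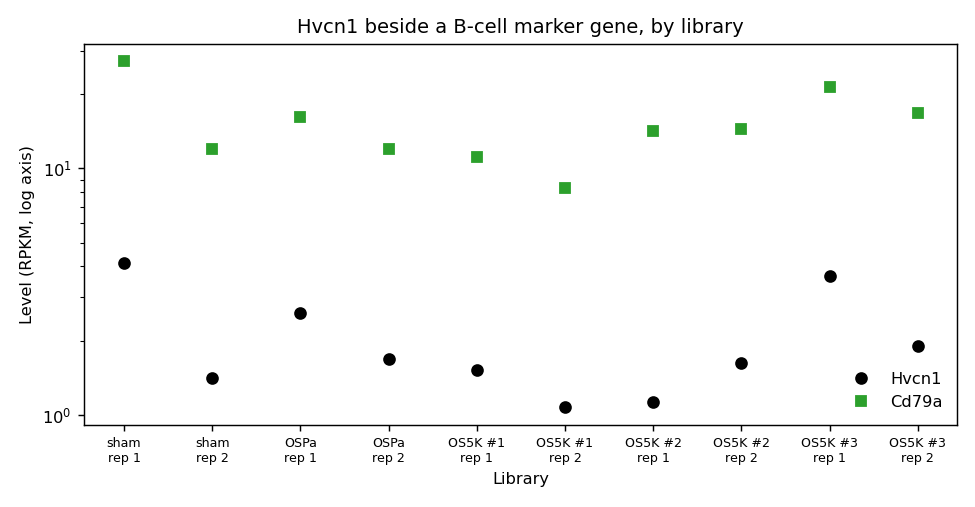
Level in RPKM (log axis) of Hvcn1 and of the B-cell gene Cd79a in each library. Both genes are highest in replicate 1 of sham, next highest in replicate 1 of OS5K #3 and lowest in replicate 2 of OS5K #1.

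The balance of subunits was compared through 5 ratios within each library, in which the scaling to the library total cancels. Cyba transcripts exceeded Cybb transcripts per length 10.3- to 20.7-fold, with the ratio highest in a sham library and lowest in an OS5K #3 library. In every group but OS5K #2 this excess was larger in the library with more reads, for which the test below has no term. It was 20.7 against 17.4 in sham and 14.7 against 10.3 in OS5K #3, but 17.3 against 17.6 in OS5K #2. Ncf4 exceeded Ncf1 2.12- to 3.10-fold, the narrowest of the 5 ratios, and Rac2 exceeded Rac1 2.60- to 5.66-fold. The ratio of Rac2 to Rac1 was higher in the library with more reads in 5 of 5 groups, from 5.66 against 4.33 in sham to 3.96 against 2.60 in OS5K #3, and the test below has no term for this. The ratio of Ncf1 to Cybb was 6.49 and 6.92 in sham, 5.20 and 8.60 in OSPa, between 5.04 and 6.50 in OS5K #1 and OS5K #2, and 2.88 and 4.33 in OS5K #3. Both OS5K #3 libraries were thus below the other 8 in this ratio, where Cybb was highest and Ncf1 had its lowest value. The order of Cybb given above enters this ratio, and the share of all gene pairs with such an order was not counted. Cybb exceeded Hvcn1 4.27- to 14.9-fold, with the smallest excess in replicate 1 of sham. An exact permutation test of the F statistic over all 945 ways to place 10 libraries in 5 groups of 2, one-sided, gave the smallest p of 0.139 for Ncf1 to Cybb and 0.164 for Cybb to Cyba. The others had p = 0.369 for Hvcn1 to Cybb, 0.556 for Rac2 to Rac1 and 0.618 for Ncf1 to Ncf4 in the same exact test, and adjusted over the 5 ratios the p-values lay between 0.410 and 0.618. The smallest p that the design allows is 0.00106. No ratio passed the test.

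**Figure D4:**
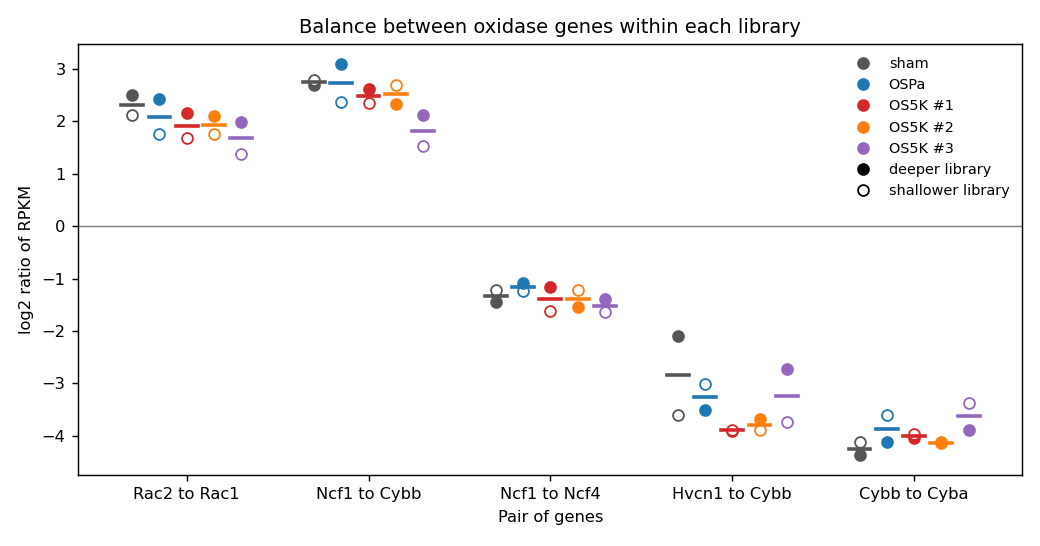
log2 ratio of RPKM for 5 pairs of genes, with a point for each library and a bar for the mean of the 2 libraries of a group; filled points are the library with more reads in its group. The ratio of Ncf1 to Cybb is lowest in both OS5K #3 libraries, 2.88 and 4.33 on the linear scale. It did not pass the test (exact permutation test, p = 0.139).

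Several members differed in the same direction between the 2 libraries of each group, a pattern chosen after the values were seen. In 5 of 5 groups the library with more reads had more Cyba, Ncf4 and Rac2, with mean log2 differences of 0.41, 0.31 and 0.28. Rac1 was lower in that library in 5 of 5 groups, with a mean difference of -0.21. Of all genes tested, 18.9% were higher in the deeper library in 5 of 5 groups and 8.25% lower, so the pattern is common in the table. Ncf1 and Cybb were higher in the deeper library in 3 of 5 groups and Hvcn1 in 4 of 5, with mean differences of 0.37, 0.14 and 0.39. Across the 7470 genes with a known transcript (92.9% of those tested), the difference ran with the G and C content of the transcript, with a Spearman rho of 0.67 over genes, which are not independent and share the same 10 libraries. Over 5 equal bins of genes by this content, the median difference went from -0.12 in the lowest bin to 0.20 in the highest. The members did not all follow this order. The content was 59.3% in Cyba, 55.7% in Ncf4, 54.7% in Hvcn1, 52.8% in both Ncf1 and Rac2, 48.3% in Rac1 and 42.4% in Cybb. Ncf1 was thus as rich as Rac2, and higher in the deeper library in fewer groups but with a larger mean difference. Cybb had the lowest content, yet its mean difference was above that of Rac1. After a correction for this content in each library the mean differences were 0.20 for Cyba, 0.14 for Ncf4, 0.16 for Rac2 and -0.23 for Rac1, while that of Cybb went from 0.14 to 0.24. Cyba, Rac2 and Cybb were then higher in the deeper library in 5 of 5 groups, Ncf4 in 4 of 5, and Rac1 in none, where 7.10% of the genes were higher and 7.36% lower in 5 of 5. A list of genes of maturing neutrophils had a higher summed level in the deeper library in 4 of 5 groups, OSPa being the exception. It holds granule genes and also Mki67 and Top2a, and 5 of its 9 genes passed the filter. The sum was mostly Ngp (121 to 579 RPKM), Lcn2 (156 to 291 RPKM), Camp (28.6 to 213 RPKM) and Ltf (20.5 to 135 RPKM). Over 9 genes of this list the sum was 983 and 349 RPKM in the deeper and the shallower library of OS5K #3, and 1027 and 692 RPKM in those of sham. The 5 platelet markers summed to 610 and 1389 RPKM in the deeper and the shallower library of OS5K #3, but to 594 and 191 RPKM in those of sham. The part of these RNAs in the members' values was not tested.

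**Figure D5:**
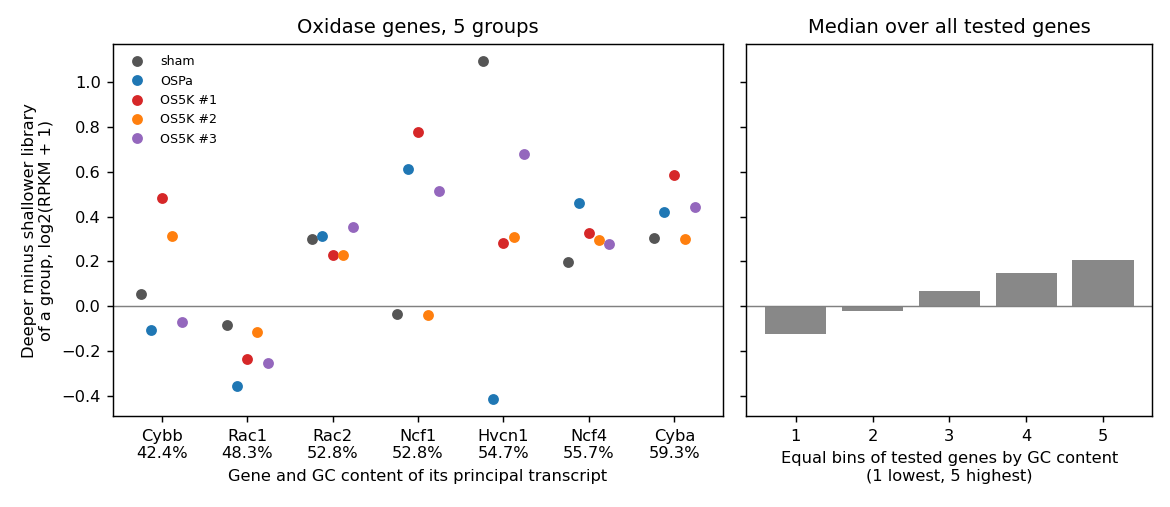
Left, difference in log2(RPKM + 1) between the library with more and the library with fewer reads of each group, for each member in order of the G and C content of its principal transcript. Right, median of the mean difference over the groups for the tested genes in 5 equal bins of that content, from -0.12 to 0.20. Cyba, Ncf4 and Rac2 are above 0 in 5 of 5 groups and Rac1 below 0.

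With the read total of each library as a covariate, an alternative chosen after the data were seen, the standard errors of most members were smaller. For OS5K against OSPa, Rac2 was then at -0.29 on the log2 scale (SE 0.06, unadjusted p = 0.00109, adjusted p = 0.090, limma), Ncf1 at -0.51 (SE 0.18) and Ncf4 at -0.23 (SE 0.08). These 3 of 7 members had an unadjusted p under 0.05, as did 12.9% of all genes tested, and none was called. For OS5K against sham, 2 of 7 members had such a p, Rac1 with 0.24 (SE 0.07) and Rac2 with -0.15 (SE 0.05), where 16.7% of all genes did, and none was called.

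Genes whose levels followed each member most closely were looked up among the 3880 genes with a mean of at least 5 RPKM, by Pearson's r of log2(RPKM + 1) over the 10 libraries, which include the shared differences of depth and base content above. Rac1 ran with Tmx3 (r = 0.99) and Sept7 (r = 0.99), Cyba with Chmp7 (r = 0.98) and Il16 (r = 0.98), Ncf4 with Ell (r = 0.98) and Capn1 (r = 0.97), and Rac2 with Abtb2 (r = 0.98) and Il4ra (r = 0.97). Tmx3 was lowest in replicate 1 of sham, with 11.6 RPKM, and highest in replicate 2 of OS5K #3, with 20.6 RPKM, the libraries where Rac1 was lowest and highest. The closest genes to Ncf1 were Stard7 (r = 0.93) and Neu1 (r = 0.93), to Hvcn1 Tmem208 (r = 0.93), and to Cybb Parg (r = 0.89) and Aldh3a2 (r = 0.88). Among the members, Ncf4 and Rac2 were most alike (r = 0.93), Ncf4 and Rac1 ran in opposite directions (r = -0.84), and Cybb had values of r near 0 with Ncf1 (-0.12), Rac2 (-0.07) and Ncf4 (-0.06).

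Genes that act around the oxidase were counted in 7 lists, and no gene of any list was called in any of the 5 comparisons (limma), against the backgrounds given above. Counts by direction are description only. The share of all genes in each direction was not counted, and the genes of a list share the same 10 libraries. Of the other oxidase and assembly genes 4 of 15 listed were tested. They included Rap1b with a mean of 256 RPKM, Rap1a with 47.1 RPKM, and BC017643, the Eros gene that supports folding of gp91phox, with 22.1 RPKM, and the log2 differences of the 4 for OS5K against OSPa lay between -0.09 and 0.08. Among 15 tested regulators of Rac, 6 were higher and 9 lower in OS5K than in OSPa, none past the threshold, with a median of -0.04. The most abundant was Arhgdib, which holds Rac in the cytosol, at 566 RPKM, followed by Cdc42 at 332 RPKM and Rhog at 314 RPKM. Arhgap25, which turns Rac off, had 80.9 RPKM.

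The kinases and lipid enzymes that act on the oxidase had 24 tested genes, of which 20 were lower and 4 higher in OS5K than in OSPa, none past the threshold, with a median log2 difference of -0.05 where all genes had 0.02. In OS5K against OSPa, 0 of the 24 had an unadjusted p under 0.05 (limma). Against sham the OS5K lines had 11 higher and 13 lower, with a median of -0.02 as for all genes. OSPa had 14 higher and 10 lower against sham, so the counts were closer to even in both comparisons with sham. Akt1 had 105 RPKM. Syk and Prkcd were chosen after their values were seen. Syk, a kinase downstream of Fc receptors, was at 62.1 RPKM with a difference of -0.23 (adjusted p = 0.662, limma), and Prkcd, which phosphorylates p47phox, at 80.3 RPKM with -0.15 (adjusted p = 0.867, limma). The Src family kinases Fgr and Lyn each had a mean of 191 RPKM. Of 9 tested transcription factors known to act at oxidase genes, 8 were lower and 1 higher in OS5K than in OSPa, again none past the threshold, with a median of -0.15 where all genes had 0.02. In OS5K against sham 5 were lower and 4 higher, with a median of -0.02. Spi1, which encodes PU.1, had 318 RPKM and a difference of -0.02. Cebpd had 173 RPKM and a difference of -0.16.

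The pentose phosphate pathway, a main source of NADPH, included abundant transcripts. Taldo1 had 1014 RPKM, Pgd 92.4 RPKM and G6pdx, the entry enzyme, 80.7 RPKM, and Nadk, which makes NADP, had 234 RPKM. Of 9 tested genes of this list 5 were higher and 4 lower in OS5K than in OSPa, and the median was 0.02. Among 7 tested genes of ion and charge balance, 5 were higher and 2 lower in OS5K than in OSPa (median 0.03), and 3 higher and 4 lower in OS5K than in sham. The widest was Car2, a carbonic anhydrase, with a log2 difference of 1.63 (adjusted p = 0.086, limma). Among 8 tested enzymes that handle oxidants, 7 were higher and 1 lower in OS5K than in OSPa (median 0.10), and 5 higher and 3 lower in OS5K than in sham. Catalase (Cat) had a difference of 1.10 (adjusted p = 0.148, limma), while the most abundant, Gpx1, had 596 RPKM and a difference of 0.14. Red cells are rich in Car2 and Cat, and the summed level of the 7 erythroid markers was 20777 to 27857 RPKM in OSPa, 44833 to 121399 RPKM in OS5K and 52624 to 61085 RPKM in sham. The part of red-cell RNA in these values was not tested.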

How the data were processed

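RPKM values per gene and library were computed and deposited by the authors, on mm10 per the submitters' processing notes. Aligner, counter and strand setting are not given in the sources. Genes reaching 1 RPKM in 2 libraries or more were fitted as log2(RPKM + 1) with limma 3.58.1 (trend, robust; R 4.3.3), with 5 group means and no covariate, and p-values were adjusted over all of them. A fold change on this scale understates that of low genes such as Hvcn1. Ratios were tested by an exact permutation test (scipy 1.17.1). Reads per gene and the read total of each library were recovered from the RPKM steps with exon lengths of GENCODE M21. Within 0.02 reads, the values of all 7 members came out whole, and 84.7% of nonzero values in all. Intervals cover the spread between these libraries. The fit was also run on simulated counts with changes larger than the members' estimates and without the depth and base-content differences seen here. That run does not cover changes of the members' size. The members, gene lists and tests were chosen with earlier results of these data known; the genes named beside the members are those of highest Pearson's r, and per list up to 4 of the most abundant; some genes that these rules name are in the counts but not reported here. Alternatives were other pseudocounts, filters, scalings and models, a replicate block, each OS5K line and each library left out, and, added later, read total, G and C content, transcript length and a crossed block. No column of the table was left unmapped.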

Additional observations from a re-analysis of the deposited data

How the results depend on the processing

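No member tested was called in any comparison under any of the 23 to 27 alternatives per comparison, with Hvcn1 not tested under the filter at 5 RPKM, and no ratio of subunits was called. The direction of members near 0 did turn, in results that were not called; the cause was not tested. For OS5K against OSPa, the log2 difference was -0.078 for Cybb and -0.026 for Rac1 without the OS5K #3 line, -0.0080 for Rac1 with median centring and -0.0012 for Cyba with the read total as covariate. For OSPa against sham, quantile normalization gave -0.012 for Ncf4 and -0.12 for Rac2, and rescaling to reads outside hemoglobin genes -0.0099 and -0.017. For OS5K against sham, Cyba was 0.055 with the G and C correction. Leaving out each library in turn gave, for OS5K against OSPa, -0.033 to 0.13 for Cybb, -0.10 to 0.32 for Cyba, -0.38 to 0.079 for Ncf4, -0.14 to 0.21 for Rac1 and -0.40 to 0.012 for Hvcn1. For OSPa against sham the ranges were -0.39 to 0.026 for Cyba, -0.11 to 0.50 for Ncf1, -0.20 to 0.26 for Ncf4, -0.14 to 0.18 for Rac2 and -0.73 to 0.36 for Hvcn1, and for OS5K against sham -0.23 to 0.076 for Cyba and -0.93 to 0.17 for Hvcn1. Other wide ranges, with no change of sign, were -0.37 to -0.05 for Rac2 and -0.72 to -0.11 for Ncf1 in OS5K against OSPa, 0.058 to 0.41 for Rac1 in OSPa against sham, and -0.34 to -0.04 for Rac2, -0.35 to -0.09 for Ncf1, -0.22 to -0.02 for Ncf4 and 0.16 to 0.32 for Cybb in OS5K against sham. The calls over all genes ranged over the alternatives from 1 to 61 in OS5K against OSPa, 0 to 9 in OSPa against sham, 0 to 30 in OS5K against sham, 0 to 24 over all groups and 0 to 7 among the lines.

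The replicate numbers did not pair the libraries: the correlation of replicate differences between groups lay between -0.38 and 0.45. With the replicate block, 0 of 7 members were called and 21, 0, 0, 0 and 0 genes in all in the 5 comparisons. The adjusted p of the ratios was 0.486 for Cybb to Cyba, Ncf1 to Cybb and Hvcn1 to Cybb, and 0.700 for Ncf1 to Ncf4 and Rac2 to Rac1. A crossed block, with the OSPa numbers swapped, called 0 members and 61, 0, 0, 24 and 0 genes. The swap was chosen from these same data, since the OSPa replicate difference had an r of -0.19 with that of sham. OS5K #2 was not swapped, though its r was -0.33 with OS5K #1 and -0.38 with OS5K #3. The block is therefore not a known factor of the design. With 2 libraries a group, changes smaller than the intervals of the members could not be called, and larger ones could be missed too. The intervals are for single genes and unadjusted, whereas a call needed an adjusted p under 0.05 over all genes tested.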
